A study of Homo sapiens with 36 samples.

Results

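TSC22D3 and its paralogues TSC22D1, TSC22D2 and TSC22D4 were examined as 4 loci in ATAC-seq peak lists of a breast cancer cell line. ATAC-seq cuts chromatin with a transposase, and a peak marks a stretch that the enzyme could reach. Peaks of all 36 libraries were merged where they overlapped, which gave 259704 regions. Of these, 116 had their centre in a member gene or within 50 kb of either gene end: 27 at TSC22D3, 23 at TSC22D1, 38 at TSC22D2 and 28 at TSC22D4. Coordinates are hg38, and gene positions come from RefSeq on GRCh38.p14. TSC22D3 lies at chrX:107713221-107775988 on the minus strand, TSC22D1 at chr13:44432143-44577344 on the minus strand, TSC22D2 at chr3:150408298-150466422 and TSC22D4 at chr7:100466519-100479214 on the minus strand.

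All libraries came from BT549, an established triple-negative breast cancer line labelled WT, in 10 groups from 3 experiments. In the GATA6 experiment (3 libraries per group), cells carried a control siRNA or a pool of siRNAs against the transcription factor GATA6 for 72 h, each with vehicle (siCtl_Veh, siGATA6_Veh) or with 500 nM dexamethasone for 2 h (siCtl_DEX, siGATA6_DEX). In the BRM014 experiment (4 per group, no siRNA), cells received DMSO, 10 µM BRM014, 500 nM dexamethasone with DMSO (DEX_DMSO) or dexamethasone with BRM014 (DEX_BRM014), all for 4 h. BRM014 inhibits the ATPases BRG1 and BRM, the motors of the SWI/SNF chromatin remodelling complex. In the knockdown experiment (4 per group), cells with control siRNA alone (siCtl_only) were set against cells with siRNAs to BRG1 and BRM (siBRG1_siBRM), and the labels give no time for these siRNAs. Dexamethasone (DEX) is a synthetic glucocorticoid that activates the glucocorticoid receptor. A pool of siRNAs lowers a transcript without removing the gene, and knockdown was not measured in these files.

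TSC22 proteins share a conserved TSC box followed by a leucine zipper and form dimers. TSC22D3 encodes GILZ, the glucocorticoid-induced leucine zipper, a known direct target gene of the glucocorticoid receptor that restrains NF-kB and AP-1 signalling. TSC22D1 is known as a gene induced by TGF-beta, and TSC22D2 and TSC22D4 are known for association with the NRBP1 and WNK kinase pathway. Several family genes have more than 1 transcription start, and the start determines whether a long or a short protein is made.

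The sequences just before 4 of these starts are shown because each one meets an accessible region described below, with or without a response to DEX. Each is the 250 bases before a RefSeq start (GRCh38.p14, minus strand, 5′ to 3′). At TSC22D3 these are the more upstream of 2 starts inside the gene, from which a shorter transcript begins (chrX:107717063-107717312), and the start at the 5′ end of the gene (chrX:107775989-107776238). At TSC22D1 1 of 3 starts inside the gene is shown (chr13:44437249-44437498), and at TSC22D4 its start (chr7:100479215-100479464). TSC22D2 was not matched in the promoter table. Capitals mark motif matches on either strand.
TSC22D3 short-form start: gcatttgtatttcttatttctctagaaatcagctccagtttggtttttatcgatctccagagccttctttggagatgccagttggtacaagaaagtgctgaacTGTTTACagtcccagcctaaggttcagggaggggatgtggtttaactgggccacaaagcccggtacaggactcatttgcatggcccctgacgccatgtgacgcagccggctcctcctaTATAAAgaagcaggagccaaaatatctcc
TSC22D3 long-form start: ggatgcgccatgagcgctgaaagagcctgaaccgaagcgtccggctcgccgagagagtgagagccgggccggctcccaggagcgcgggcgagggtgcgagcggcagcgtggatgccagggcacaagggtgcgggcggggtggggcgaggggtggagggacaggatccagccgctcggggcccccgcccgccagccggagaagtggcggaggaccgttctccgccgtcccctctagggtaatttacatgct
TSC22D1 short-form start: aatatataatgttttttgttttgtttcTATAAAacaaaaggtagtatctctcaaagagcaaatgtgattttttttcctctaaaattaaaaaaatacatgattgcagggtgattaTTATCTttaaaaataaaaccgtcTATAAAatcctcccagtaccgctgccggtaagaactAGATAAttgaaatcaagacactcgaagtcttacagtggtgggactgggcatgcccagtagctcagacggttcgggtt
TSC22D4 start: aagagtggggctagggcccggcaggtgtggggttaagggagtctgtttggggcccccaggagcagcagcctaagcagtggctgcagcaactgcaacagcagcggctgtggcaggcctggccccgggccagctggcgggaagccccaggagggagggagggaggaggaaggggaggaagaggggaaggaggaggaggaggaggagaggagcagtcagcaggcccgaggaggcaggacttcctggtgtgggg
The 7 motifs searched, on both strands, were the full glucocorticoid receptor site (AGAACA, 3 unspecified bases, then TGTTCT), its first arm AGAACA, the forkhead motif TGTTTAC, the AP-1 motif TGANTCA, the GATA motif AGATAA, the TEAD motif GGAATG and the TATA box TATAAA. A match to the full site always overlaps a match to the arm. The TSC22D3 short-form promoter held TGTTTAC at position -147 and TATAAA at -29 from the start, and its GC content was 48%. Its long-form promoter held none of the 7 and had a GC content of 71.2%. The TSC22D1 short-form promoter held AGATAA at -136, read on the other strand, and at -77, with TATAAA at -223 and -113, at a GC content of 34.8%. TSC22D4 held none, at 68% GC. Among all 34789 promoters of this length, TATAAA was in 10.8%, AGATAA in 9.20%, TGTTTAC in 2.98%, AGAACA in 12.4%, TGANTCA in 6.55%, GGAATG in 11.9% and the full receptor site in 1 (0.00287%). These matches describe the letters only.

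Libraries held 114113 to 131423 peaks in the GATA6 experiment, 41026 to 103956 in the BRM014 experiment and 37184 to 87609 in the knockdown experiment, so comparisons were made within an experiment. The number of peaks changed by -43.0% with BRM014, by -43.8% with BRM014 in DEX and by -40.6% in siBRG1_siBRM (two-sided exact permutation test, p = 0.0286 in each, the smallest that 4 against 4 libraries allow). DEX moved it by 1.01% to 5.29%, with groups that overlapped. Of the mesenchymal markers, VIM, CDH2, FN1, SPARC and TWIST1 had a peak within 1 kb of a gene end in all 36 libraries and ZEB1 in 32. Of the luminal markers, ESR1 and PGR had none, GATA3 had one in 13 libraries and FOXA1 in 36. Of the leukocyte genes reported, CD3E had a peak in 16, PTPRC in 30 and SPI1 in 36.

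With DEX, the number of accessible regions at TSC22D3 rose by 8.25 to 10 regions, at 2 h and at 4 h. A library is said to hold a region when one of its peaks overlaps it by at least 1 bp. The siCtl_Veh libraries held 10, 9 and 9 of the 27 regions, and the siCtl_DEX libraries held 17, 20 and 18. In GATA6 knockdown cells the numbers were 8, 9 and 8 with vehicle and 17, 21 and 17 with DEX. At 4 h they were 7, 9, 7 and 9 with DMSO and 18, 15, 17 and 15 in DEX_DMSO. In each of these 3 comparisons every DEX library held more regions than every control library. A region that is not held had no called peak, which does not show that it was closed.

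The rise at 2 h in siCtl cells was from 9.33 ± 0.58 to 18.3 ± 1.53 regions (mean ± SD, n = 3), a log2 difference of 0.90 (SE 0.095, limma, adjusted p = 0.00422). Across the 18797 protein-coding genes tested, 0.442% were called higher and 0.0372% lower. In siGATA6 cells the rise was from 8.33 ± 0.58 to 18.3 ± 2.31 regions (n = 3), with a log2 difference of 1.05 (SE 0.095, adjusted p = 0.00146) against 0.697% of genes called higher and 0.00532% lower. At 4 h in DMSO it was from 8 ± 1.15 to 16.25 ± 1.5 (n = 4), with a log2 difference of 0.94 (SE 0.15, adjusted p = 0.0170) against 0.282% of 18767 genes called higher and 0.016% lower. For single values the exact permutation test gave its smallest p in all 3, which is 0.1 for 3 against 3 libraries and 0.0286 for 4 against 4. The 4 h call was lost when 1 of 5 of the 8 libraries was left out, that is without DMSO replicate 1 (adjusted p = 0.0790) or 3 (0.0735), or without DEX_DMSO replicate 1 (0.0783), 2 (0.0523) or 3 (0.0598). With a window of 10 kb in place of 50 kb the log2 differences were 0.36, 0.48 and 0.53, and none of the 3 was called (adjusted p = 0.407, 0.213 and 0.217).

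**Figure D1:**
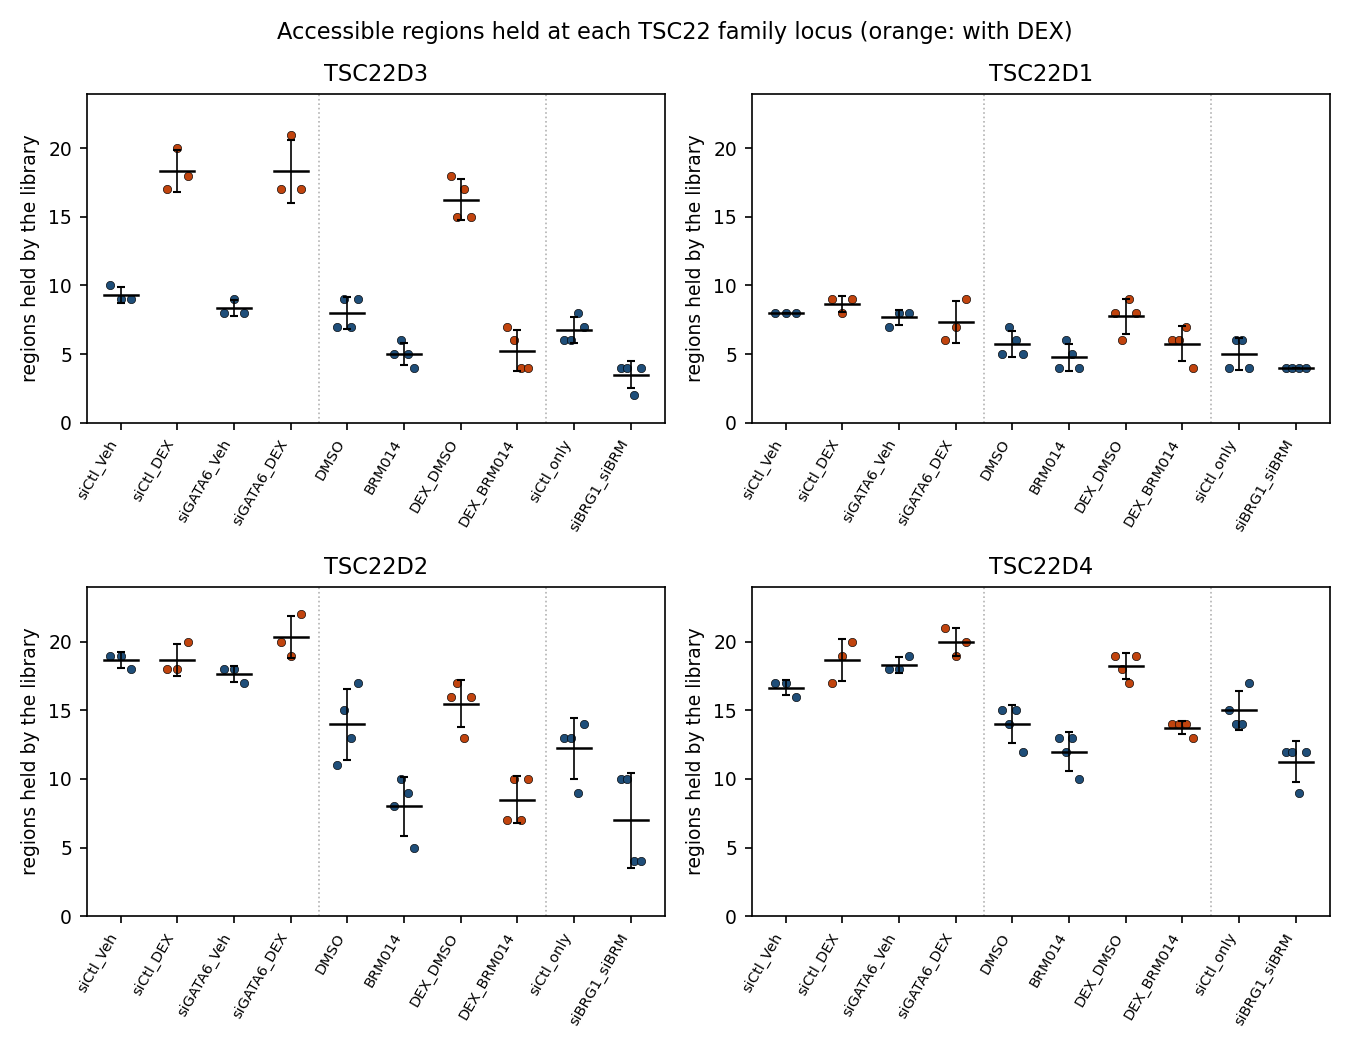
Number of accessible regions held by each library at each of the 4 loci, by group on the x axis. Points are libraries, bars are group means with SD, orange marks groups with DEX, and dotted lines part the 3 experiments. At TSC22D3 the siCtl_DEX, siGATA6_DEX and DEX_DMSO libraries held 15 to 21 regions, against 7 to 10 in their controls, while DEX_BRM014 held 4 to 7.

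Most regions that appeared with DEX lay beyond the 3′ end of TSC22D3. A region was called gained when every DEX library and no control library held it. This was so for 8 regions at 2 h in siCtl (33.3% of those held by any library of the comparison, against 2.52% of all regions), 10 at 2 h in siGATA6 (41.7%, against 2.36%) and 5 at 4 h in DMSO (22.7%, against 1.56%). As many gained regions were found at 12 (0.0615%), 3 (0.0154%) and 12 (0.0615%) of the protein-coding genes with a region held in these comparisons. TSC22D3 is 1 of the genes in each of these counts. In all 3 comparisons 5 TSC22D3 regions were gained, where 0.449% of all regions were, and in at least 1 of them 10 of 25 were, where 3.1% were. Of the 13 regions beyond the 3′ end, 9 were gained in at least 1 comparison. Of the 13 in the gene 1 was, and the single region beyond the 5′ end was not.

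Among the 5 regions gained in all 3 comparisons, that at chrX:107673986-107674369, 39.0 kb beyond the 3′ end, was the most open. For each peak the pileup of reads at its summit was recovered from the deposited fold and p-value and divided by the base background of its library, and this ratio is called the summit level. At this region it was 146, 175 and 159 in siCtl_DEX, 130, 164 and 149 in siGATA6_DEX and 168, 171, 173 and 181 in DEX_DMSO. No library without DEX held it, nor did any DEX_BRM014 library. The levels in DEX_DMSO lay in the range of those at the region before the long-form starts that all 36 libraries held.

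The other 4 were less open. At chrX:107712483-107713172, 0.39 kb beyond the 3′ end, the summit level was 52.8, 59.9 and 80.3 in siCtl_DEX, 55.6, 44.3 and 59.2 in siGATA6_DEX and 121, 79.4, 96.9 and 102 in DEX_DMSO. Here the siCtl_DEX and siGATA6_DEX values overlapped. The region at chrX:107700312-107700749, 12.7 kb beyond the 3′ end, had levels of 34.6, 26.8 and 37.9 in siCtl_DEX, 32.6, 28.1 and 32.1 in siGATA6_DEX and 67.3, 59.5, 55.4 and 66.9 in DEX_DMSO. At chrX:107684892-107685324, 28.1 kb beyond the end, levels were 20.3, 26.8 and 45.5, then 23, 25.1 and 27.1, and 57.2, 59.5, 58.8 and 74.8 in the same order of groups. Only chrX:107747652-107747862 lay in the gene, 34.5 kb inside its 3′ end, with levels of 12.2, 15.8 and 10.6, then 13.4, 14.8 and 27.1, and 26.9, 47.6, 20.8 and 35.4. None of these 5 regions was held by a siCtl_only, siBRG1_siBRM, BRM014 or DEX_BRM014 library. The 2 h and 4 h libraries belong to different experiments, so their levels are set side by side and not compared.

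At 2 h in both siCtl and siGATA6 cells 3 more regions were gained. The region at chrX:107710785-107711326, 2.17 kb beyond the 3′ end, was not called at 4 h because 1 DMSO library held it at a level of 16.6, against 111, 159, 100 and 106 in DEX_DMSO. At chrX:107674626-107674882, 38.5 kb beyond the end, 2 of 4 DEX_DMSO libraries held a peak, and at chrX:107679102-107679248, 34.0 kb beyond it, 3 of 4 had. In siGATA6 cells only, chrX:107675885-107676041 and chrX:107691135-107691319 were called gained. For the first, 1 siCtl_Veh library held a peak at 24.3. The siCtl_DEX libraries had 69.1, 69.4 and 71.2 there, and the siGATA6_DEX libraries 63.2, 57.6 and 81.2, so the levels with DEX overlapped. The second was held by 2 of 3 siCtl_DEX libraries and by no siCtl_Veh library. Its summit pileups were low, at 8 and 7 in siCtl_DEX and 6, 9 and 5 in siGATA6_DEX. Over all groups, 9 of the 27 TSC22D3 regions (33.3%) were held only with DEX and by at least 5 libraries, against 1.63% of all regions and none at TSC22D1, TSC22D2 or TSC22D4.

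**Figure D2:**
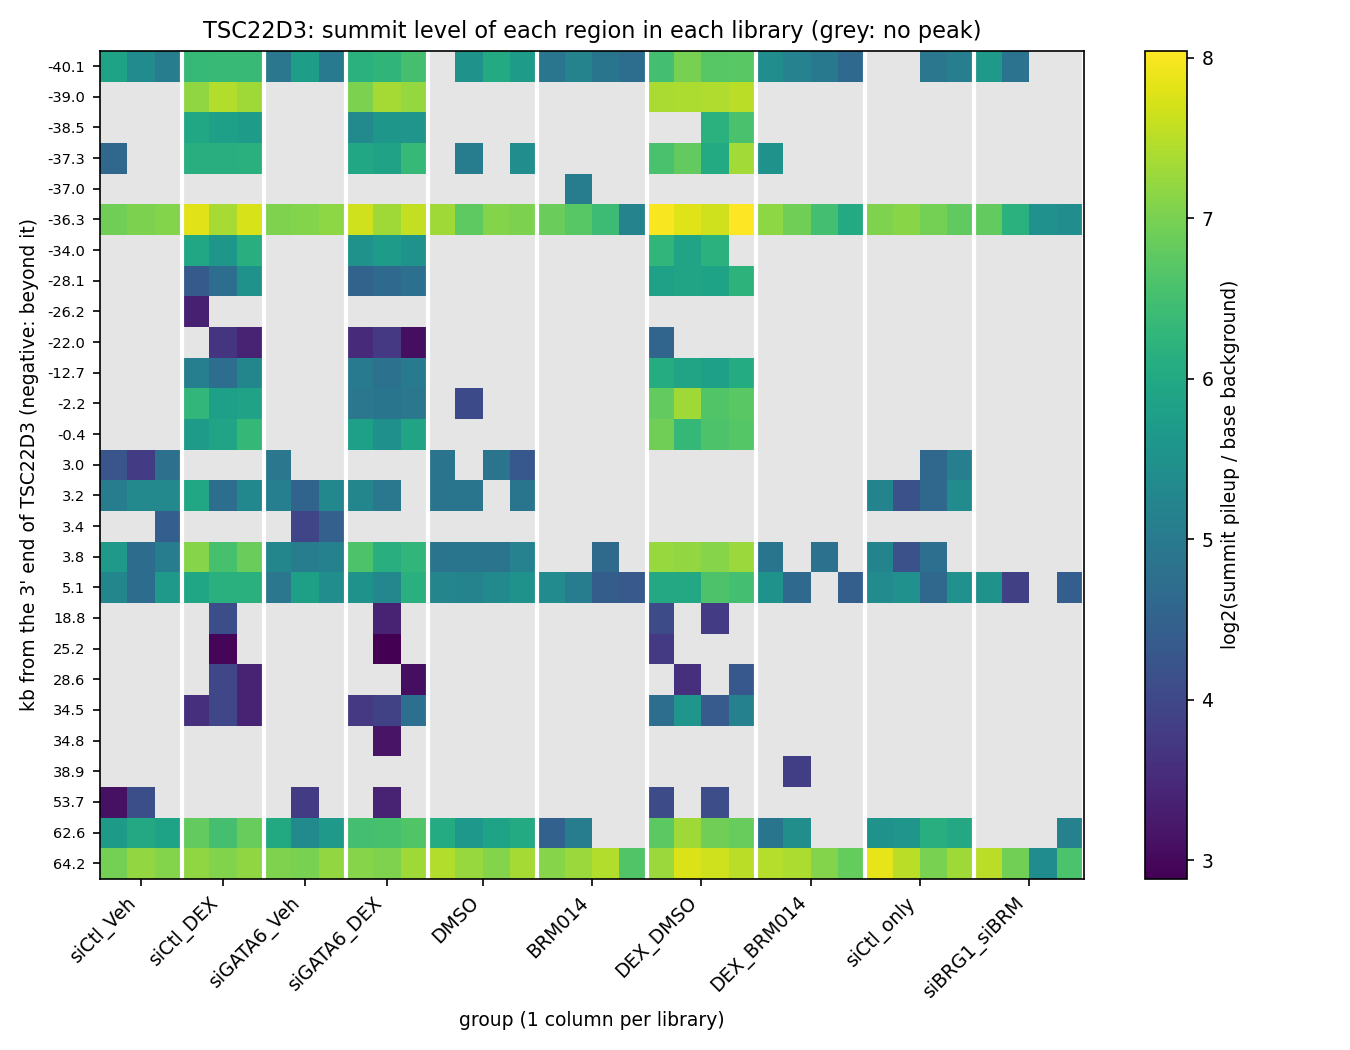
Summit level (log2 of pileup over base background, colour) of each of the 27 TSC22D3 regions in rows, ordered by distance in kb from the 3′ end, in each of the 36 libraries in columns. Grey means no called peak. The rows of the 5 regions gained in all 3 DEX comparisons, at -39.0, -28.1, -12.7, -0.39 and 34.5 kb, are filled in siCtl_DEX, siGATA6_DEX and DEX_DMSO and grey in all other groups, while the row at -36.3 kb is filled in all 36 libraries.

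Of the 4 TSC22D3 starts in RefSeq, the short-form start at 107717062 and the pair of long-form starts lay in regions that were already open without DEX and opened further with it. The region over the short-form start (chrX:107716788-107717228) had summit levels of 50.3, 26.0 and 33.8 in siCtl_Veh and 138, 93.1 and 117 in siCtl_DEX. In siGATA6 cells the levels were 38.3, 33.2 and 35.8 with vehicle and 97.7, 70.9 and 77.8 with DEX. At 4 h they were 29.0, 29.8, 29.2 and 36.1 with DMSO and 152, 147, 138 and 154 in DEX_DMSO. Every DEX library was above every control library. Among regions held by all libraries of both groups, the log2 differences were 1.69 (SE 0.23, adjusted p = 1.10e-04), 1.19 (SE 0.22, adjusted p = 2.07e-04) and 2.25 (SE 0.22, adjusted p = 1.97e-16), with p-values adjusted over all such regions. These are 3.24-fold, 2.28-fold and 4.77-fold rises.

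The region over the long-form starts (chrX:107775588-107776039) rose by less. Its summit level went from 52.0, 64.2 and 58.4 to 112, 91.5 and 115 in siCtl, from 65.1, 41.0 and 51.1 to 90.0, 93.1 and 99.8 in siGATA6, and from 66.4, 49.7, 58.4 and 65.6 to 108, 159, 121 and 114 at 4 h. Groups did not overlap. The log2 differences were 0.86 (SE 0.17, adjusted p = 0.00457), 0.87 (SE 0.20, adjusted p = 0.00327) and 1.06 (SE 0.20, adjusted p = 1.36e-05), and the second was not called without siGATA6_Veh replicate 2 (adjusted p = 0.0502). Whether the 2 starts differed in their rise was not tested. A neighbouring region at chrX:107777265-107777509, 1.4 kb before the long-form start and held by all 36 libraries, differed by 0.06, 0.06 and 0.27 on the log2 scale, and none of the 3 was called (adjusted p = 0.913, 0.917 and 0.262).

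In all, 5 of the 7 TSC22D3 regions held by every library of both groups rose in level at 2 h in siCtl, 3 of 6 in siGATA6 and 4 of 5 at 4 h, and none fell. The shares called higher over all such regions were 2.48%, 2.42% and 4.56%, and those called lower were 1.94%, 2.65% and 7.09%. Centring subtracts from each library the median level of the regions tested. So centred, the 4 h shares were 5.95% higher and 6.05% lower, and the TSC22D3 counts were 5, 4 and 4. The outermost, chrX:107673001-107673314, rose by 0.91 in siCtl (adjusted p = 0.0150) and by 1.08 in siGATA6 (adjusted p = 0.00151). The first of these calls was lost without siCtl_Veh replicate 2 (adjusted p = 0.0542) or siCtl_DEX replicate 1 (0.0809) or 2 (0.0588). A region 1.24 kb before the short-form start, chrX:107718189-107718424, rose at 4 h by 0.96 (adjusted p = 0.00181). Its rise at 2 h in siCtl was 0.87 (adjusted p = 0.0429) and was lost without siCtl_Veh replicate 1 (adjusted p = 0.132) or 2 (0.222) or without siCtl_DEX replicate 1 (0.114), 2 (0.140) or 3 (0.0966). In siGATA6 its log2 difference was 0.25 (adjusted p = 0.750).

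For the region at chrX:107676556-107677366, 36.3 kb beyond the 3′ end and held by all 36 libraries, the deposited fold and the summit level moved in opposite directions. The authors' fold, the summit pileup over the background around the peak, was 19.8, 20.8 and 22.5 in siCtl_Veh and 11, 8.93 and 11 in siCtl_DEX. The summit pileup itself was 70, 75 and 89 against 110, 105 and 141. The local background in the fold was 2.58, 2.65 and 2.99 against 9.11, 10.9 and 11.9. So the fold was lower with DEX in every library while the pileup was higher. At 4 h the fold was 18.1, 14.8, 16.3 and 17.0 with DMSO and 11.2, 9.44, 9.10 and 10.3 in DEX_DMSO, while the local background went from 1.15 to 1.41 up to 5.04 to 5.90. Scaled to the base background of the library, the summit level rose by 0.62 (SE 0.13, adjusted p = 0.00718) at 2 h in siCtl and by 0.83 (SE 0.14, adjusted p = 2.21e-06) at 4 h. In siGATA6 the difference was 0.42 (adjusted p = 0.0564), and 0.43 (adjusted p = 0.0180) when centred on library medians. The siCtl call was lost without siCtl_Veh replicate 1 (adjusted p = 0.0556) or siCtl_DEX replicate 1 (0.0753). Base backgrounds of the libraries overlapped between the groups.

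**Figure D3:**
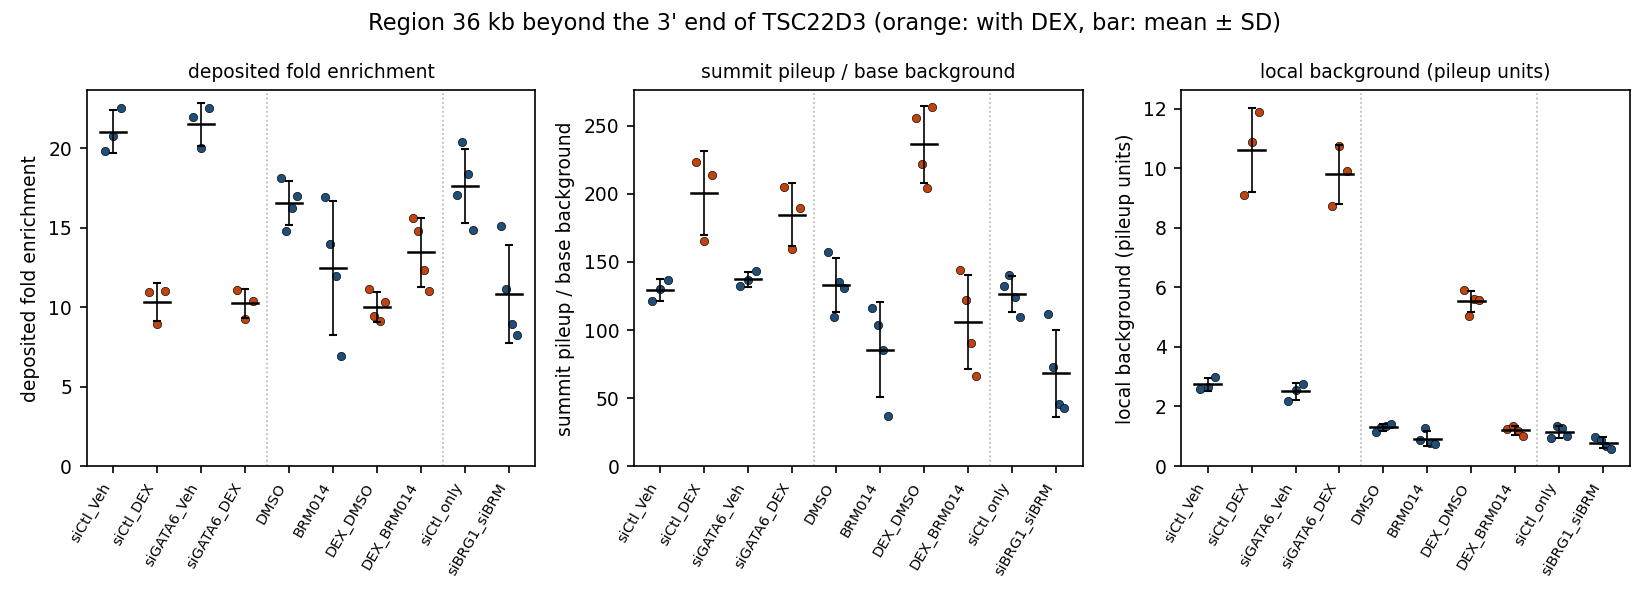
The region 36.3 kb beyond the 3′ end of TSC22D3: deposited fold (left), summit pileup over base background (middle) and local background in pileup units (right), by group. Points are libraries and bars are means with SD. Fold is lower with DEX (8.93 to 11 in siCtl_DEX, 19.8 to 22.5 in siCtl_Veh) although the summit level and the local background are higher.

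The local background is known only where a peak was called, so for a lost region it is not known in the DEX libraries. At 2 h in siCtl 1 region was lost (every control and no DEX library; 0.817% of all regions), chrX:107716092-107716251, 336 bp downstream of the nearest start. At least 1 region was lost at 7.5% of genes. The count was 0 with -log10 q of at least 5 and with equally many best peaks, and 2 with a summit within 100 bp or without siCtl_Veh replicate 3. Its summit levels without DEX were 19.1, 13.9 and 27.6. The region next to it, chrX:107716293-107716473, lies 125 bp downstream of that start (107716508). Its rise was not called: the summit level was 32.9, 39.9 and 39.9 in siCtl_Veh and 63, 26.8 and 39.4 in siCtl_DEX (log2 difference 0.11, SE 0.28, adjusted p = 0.928). At 4 h it was held by 3 of 4 DMSO libraries and by no DEX_DMSO library. Its local background was 1.62, 1.57 and 1.94 in siCtl_Veh and 4.59, 5.13 and 6.76 in siCtl_DEX, and the fold was 7.64, 9.35 and 9.19 against 5.72, 2.94 and 3.48. The part of the local background in the lost call was not tested. No region was called lost at TSC22D3 with DEX in siGATA6 (0.595% of all regions), at 4 h (0.434%) or under BRM014 (0.155%). Over all regions, 0.00218% were lost in all 3 DEX comparisons without BRM014 and 1.29% in at least 1.

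GATA6 knockdown changed little at TSC22D3. With vehicle it held 8.33 ± 0.58 regions against 9.33 ± 0.58 (n = 3), a log2 difference of -0.15 (SE 0.095, adjusted p = 0.803). With DEX the mean was 18.3 in both, and the log2 difference was -0.0036 (SE 0.095, adjusted p = 1). Of 18797 genes, 0.00532% were called lower and none higher in either comparison. The response to DEX differed by 1 region between siGATA6 and siCtl (permutation test of residuals, p = 0.605; limma interaction adjusted p = 0.950). No TSC22D3 region was gained or lost with GATA6 knockdown (0.459% and 0.806% of all regions with vehicle, 0.677% and 0.71% with DEX).

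One TSC22D3 region was lower in level with GATA6 knockdown in DEX. It was the gained region 2.17 kb beyond the 3′ end (chrX:107710785-107711326), with levels of 79.3, 55.2 and 57.6 in siCtl_DEX and 30.7, 29.5 and 30.5 in siGATA6_DEX. The groups did not overlap, and the log2 difference was -1.06 (SE 0.23, adjusted p = 0.0100). Among regions held by all 6 libraries 1.07% were called lower, and among the 15 at TSC22D3 this was the one called. Without siCtl_DEX replicate 1 the adjusted p was 0.178. The short-form start differed by -0.49 (adjusted p = 0.227) and the long-form starts by -0.16 (adjusted p = 0.902).

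BRM014 lowered the number of TSC22D3 regions and left it without a measurable response to DEX. The BRM014 libraries held 5, 6, 5 and 4 regions, and the DEX_BRM014 libraries 7, 6, 4 and 4. All 8 lay below the DEX_DMSO libraries, and the 2 groups overlapped each other. Under BRM014 the difference with DEX was 0.25 regions, a log2 difference of 0.04 (SE 0.15, adjusted p = 1; 0.032% of genes called higher and 0.0107% lower), and no region was gained (0.323% of all regions). The response to DEX was smaller by 8 regions than with DMSO. A permutation test of residuals gave p = 0.00023 for this interaction, 1 of 8 computed over the 4 loci. On the log2 scale it was -0.91 (SE 0.22), and limma's adjusted p over 18767 genes was 0.489, with no gene called. With equally many best peaks kept in every library of the experiment it was -1.69 and was called (adjusted p = 0.00620).

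Without DEX, BRM014 took the mean from 8 ± 1.15 to 5 ± 0.82 regions (n = 4), a log2 difference of -0.59 (SE 0.15, adjusted p = 0.00432), where 60.4% of all genes were called lower and 0.0639% higher. With DEX it went from 16.25 ± 1.5 to 5.25 ± 1.5, a log2 difference of -1.49 (SE 0.15, adjusted p = 1.77e-06), where 61.6% were called lower and 0.0373% higher. Being called lower was thus the common case. With equally many best peaks the log2 difference without DEX turned to 0.29 and was not called (adjusted p = 0.235), while that with DEX was -1.40 (adjusted p = 7.91e-05). BRM014 with DEX lost 6 TSC22D3 regions (28.6% of those held, against 11.6% of all regions), and 466 genes (2.39%) lost as many. Without DEX none of the 11 TSC22D3 regions held was lost, against 11.3% of all regions. None was gained in either (0.041% and 0.0761% of all regions). The 6 regions lost with BRM014 in DEX were the 5 gained in all 3 DEX comparisons and chrX:107710785-107711326. This comparison and the 4 h DEX comparison share the DEX_DMSO libraries.

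The starts also had fewer peaks with BRM014. Over the short-form start, 1 of 4 BRM014 libraries held the region, at a level of 25.5. All 4 DMSO libraries held it, at no more than 36.1. It was held by 2 of 4 DEX_BRM014 libraries, at 29.7 and 27.9, against 138 to 154 in DEX_DMSO. The long-form starts were held by 2 of 4 BRM014 libraries, at 22.5 and 33.4, and by 2 of 4 DEX_BRM014 libraries, at 29.7 and 43.2. All 4 DMSO and all 4 DEX_DMSO libraries held them, at the levels given above. The summit level at chrX:107676556-107677366 was 116, 104, 85.1 and 36.8 with BRM014 and 144, 122, 90.6 and 65.8 in DEX_BRM014. With DEX it fell by 1.22 on the log2 scale (SE 0.22, adjusted p = 4.25e-07), where the median of the differences over all regions tested was -0.28, and chrX:107673001-107673314 fell by 1.68 (adjusted p = 4.47e-09). Without DEX the difference at chrX:107676556-107677366 was -0.75 (adjusted p = 0.0288), where the median of the differences was -0.36. When each library was centred on its median level, it was -0.17 (adjusted p = 0.470), and it was also lost without DMSO replicate 1 (adjusted p = 0.135), 3 (0.0857) or 4 (0.0834) or BRM014 replicate 4 (0.0971). At chrX:107777265-107777509, before the long-form starts, levels of 139, 154, 174 and 100 with BRM014 overlapped the 174, 152, 135 and 164 with DMSO. Its log2 difference was -0.16 (adjusted p = 0.747) and, centred on library medians, 0.43 (adjusted p = 0.00708). In the series the level was called lower in 26.9% and higher in 0.205% of regions without DEX, but in 16.3% and 36.5% once centred, where the median of the differences was 0.23. With DEX the shares were 27.2% and 0.419%, and 14.8% and 38.5% once centred.

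**Figure D4:**
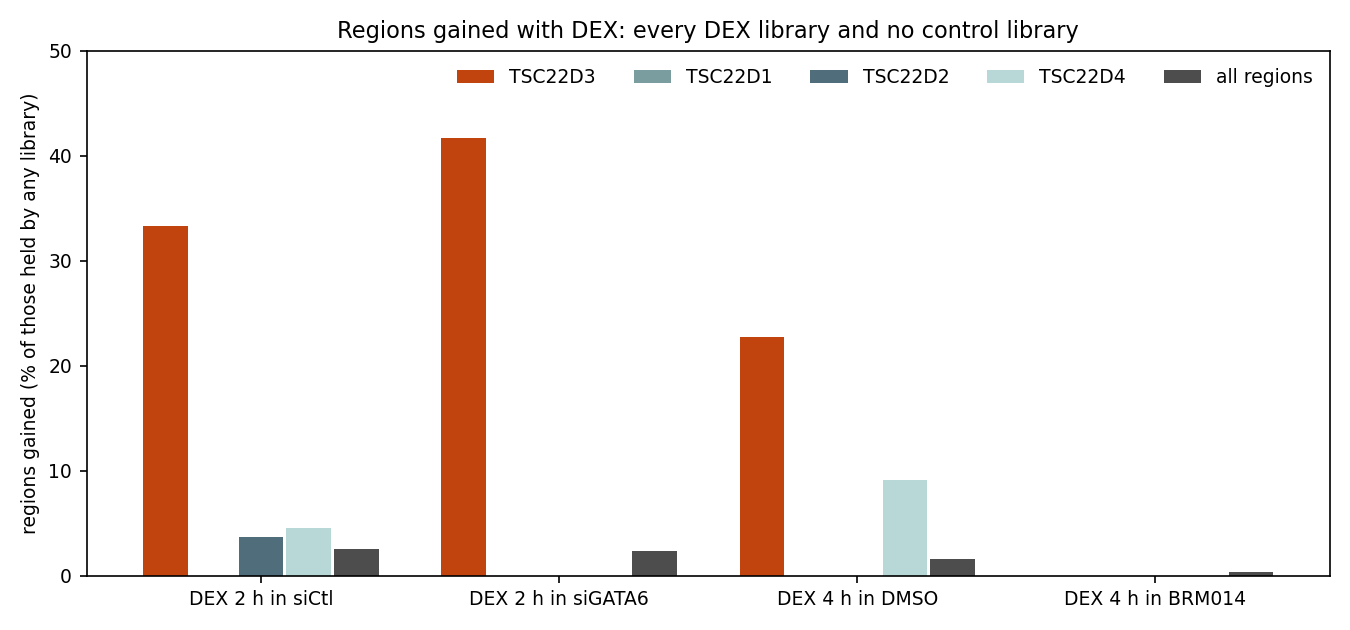
Share of regions gained with DEX (% of the regions held by any library of the comparison, y axis) at each locus and over all regions, for the 4 DEX comparisons. TSC22D3 stands at 33.3%, 41.7% and 22.7% without BRM014 and at 0 under BRM014, against 2.52%, 2.36%, 1.56% and 0.323% of all regions.

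Knockdown of BRG1 and BRM also lowered the TSC22D3 count in cells without DEX. The siCtl_only libraries held 6, 6, 8 and 7 regions and the siBRG1_siBRM libraries 4, 4, 2 and 4, without overlap. The log2 difference was -0.81 (SE 0.19, n = 4, adjusted p = 0.0141; exact permutation p = 0.0286), where 48.1% of 18135 genes were called lower and 0.0993% higher. With equally many best peaks it was 0.18 (adjusted p = 0.513). In this comparison 1 region was lost (6.73% of all regions), chrX:107716293-107716473 near the short-form start, and 35.3% of genes lost at least 1. None was gained (0.0282%). The short-form start was held by 3 of 4 siCtl_only libraries, at 37.2, 17.9 and 27.4, and by no siBRG1_siBRM library, and the long-form starts by 4 and by 1 (35.7). At chrX:107676556-107677366 the summit level was 132, 140, 125 and 109 against 112, 72.5, 45.3 and 42.9, with 1 knockdown library reaching into the control range. Its log2 difference was -1.0 (SE 0.33, adjusted p = 0.0202) where the median of the differences was -0.47 and 17.5% of regions were called lower and 0.124% higher (8.11% and 8.27% once centred). Centred on library medians it was -0.39 (adjusted p = 0.268). It was also lost without any 1 of the siCtl_only libraries (adjusted p = 0.0512 to 0.105) or without siBRG1_siBRM replicate 4 (0.0917).

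At TSC22D1, within 50 kb, the number of regions did not pass the test with DEX, BRM014 or either knockdown. With siCtl it was 8, 8 and 8 with vehicle and 9, 8 and 9 with DEX, and with siGATA6 7, 8 and 8 against 6, 7 and 9. At 4 h it was 5, 7, 6 and 5 with DMSO and 8, 6, 9 and 8 in DEX_DMSO (log2 difference 0.37, SE 0.16, adjusted p = 0.493). All these groups overlapped. BRM014 gave -0.24 (adjusted p = 0.212) and, with DEX, -0.38 (adjusted p = 0.0502), and siBRG1_siBRM gave -0.24 (adjusted p = 0.167). Within 50 kb, 60.4%, 61.6% and 48.1% of all genes were called lower in these 3 comparisons. The second BRM014 value passed without DEX_DMSO replicate 2 (adjusted p = 0.0237) or DEX_BRM014 replicate 3 (0.0313). With a window of 100 kb all 3 were called, at -0.49 with BRM014 (adjusted p = 0.00544), -0.57 with BRM014 in DEX (0.00181) and -0.75 in siBRG1_siBRM (0.00776).

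Of the starts inside TSC22D1, the one at 44474341 met a region held by 1 library only (chr13:44474284-44474358). The starts further downstream lay in regions held by all 36 libraries. The region at chr13:44436670-44437071, over the last of them, had levels of 272, 252 and 287 in siCtl_Veh and 238, 240 and 256 in siCtl_DEX, which overlapped. Its log2 difference was -0.14, 0.0066 and 0.00035 in the 3 DEX comparisons (adjusted p = 0.570, 0.991 and 0.999). With BRM014 it was 0.09 (adjusted p = 0.870), and 0.67 (adjusted p = 1.67e-07) when centred on library medians. So centred, 36.5% of all regions tested were called higher with BRM014. The short-form promoter region chr13:44437160-44437335, which holds the last bases printed above, was held by all 36 libraries too, at 118 to 140 in siCtl_Veh and 103 to 128 in siCtl_DEX. The 1 call at TSC22D1 was chr13:44523135-44523403, lost with DEX in siGATA6 (0.595% of all regions), with levels of 17.2, 21.5 and 27.3 with vehicle. None of the 15, 14 and 14 TSC22D1 regions held in the 3 DEX comparisons without BRM014 was gained (2.52%, 2.36% and 1.56% of all regions). Under BRM014 none of 8 was (0.323%).

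TSC22D2 was not called with DEX in number of regions and held fewer with BRM014, as most genes did (60.4%, and 61.6% with DEX). It held 19, 19 and 18 regions in siCtl_Veh and 18, 18 and 20 in siCtl_DEX, 18, 18 and 17 in siGATA6_Veh and 20, 19 and 22 in siGATA6_DEX. At 4 h it held 11, 15, 13 and 17 with DMSO, 16, 17, 13 and 16 in DEX_DMSO, 8, 10, 9 and 5 with BRM014 and 7, 10, 7 and 10 in DEX_BRM014. The 3 DEX differences were -0.0012, 0.19 and 0.15 on the log2 scale (adjusted p = 1, 0.192 and 0.919), and groups in the siGATA6 comparison did not overlap. BRM014 gave -0.76 (SE 0.18, adjusted p = 0.00198) and, with DEX, -0.81 (SE 0.18, adjusted p = 0.00117). With equally many best peaks these were -0.0074 and 0.14, and neither was called (adjusted p = 1 and 0.572). In siBRG1_siBRM it held 10, 10, 4 and 4 against 13, 13, 9 and 14 (log2 difference -0.82, adjusted p = 0.0554), which passed without siBRG1_siBRM replicate 1 (adjusted p = 0.0291) or 2 (0.0416). In that comparison 48.1% of all genes were called lower.

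Beyond the higher-coordinate end of TSC22D2, 2 regions were lower with BRM014 and with BRG1 and BRM knockdown. At chr3:150470522-150470882, 4.28 kb beyond, all 24 libraries without BRM014 or BRG1 and BRM knockdown held a peak and none of the other 12 did. It was lost with BRM014 (11.3% of all regions), with BRM014 in DEX (11.6%) and in siBRG1_siBRM (6.73%). It was the 1 TSC22D2 region lost of 25 held with BRM014 and of 22 held in siBRG1_siBRM. In DEX, BRM014 also lost chr3:150372786-150372977 and chr3:150412631-150412748, 3 of 24 held regions in all (12.5%, near the 11.6% of all regions). At chr3:150469400-150470071, 3.31 kb beyond and held by all 36, the summit level was 241, 248, 175 and 236 with DMSO and 48.7, 63.5, 72.3 and 23.4 with BRM014. It was 236, 266, 198 and 234 in siCtl_only and 77.2, 50.7, 22.7 and 67.9 in siBRG1_siBRM. The log2 differences were -2.22 (SE 0.28, adjusted p = 6.77e-14), -1.49 with DEX (SE 0.22, adjusted p = 2.53e-10) and -2.23 in the knockdown (SE 0.33, adjusted p = 6.57e-10). After centring on library medians they were -1.63, -0.94 and -1.62, all called. Over all regions tested, 26.9%, 27.2% and 17.5% were called lower, and 16.3%, 14.8% and 8.11% once centred. With DEX the level at chr3:150469400-150470071 differed by 0.31, 0.17 and 0.23 without a call (adjusted p = 0.111, 0.536 and 0.287). Under BRM014 the DEX difference was 0.96 (adjusted p = 0.298), and 0.93 (adjusted p = 0.00254) when centred. The region over the lower-coordinate end of the gene, chr3:150408166-150409281, was held by all 36 libraries, and its level was not called in any of the 9 comparisons. Centred on library medians, BRM014 with DEX gave 0.55 there (adjusted p = 4.68e-04), where 38.5% of all regions tested were called higher.

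With DEX, few TSC22D2 regions were called. One of 27 held regions was gained at 2 h in siCtl (3.70%, near the 2.52% of all regions), chr3:150372786-150372977, with levels of 40.7, 31.5 and 33.3. In level, 1 of 10 tested was higher in siCtl (2.48% of all regions), 1 of 11 lower in siGATA6 (2.65%) and 1 of 7 lower at 4 h (7.09%). In the gene, chr3:150462111-150462481 rose by 1.2 in siCtl (SE 0.29, adjusted p = 0.0213), from 12.1, 10.4 and 10.8 to 30.5, 25.2 and 21.2. The region chr3:150422153-150422480 fell by 0.79 in siGATA6 (adjusted p = 0.0238) and by 0.56 at 4 h (adjusted p = 0.0444), and its difference in siCtl was -0.56 (adjusted p = 0.0609). With BRM014 it fell by 2.04 (adjusted p = 4.23e-10), where 26.9% of all regions tested were called lower. Each of the 3 calls was lost when 1 of 4 or more libraries was left out (adjusted p up to 0.122, 0.156 and 0.236), and the 4 h call also when centred on library medians (adjusted p = 0.0698).

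TSC22D4 held 17, 17 and 16 regions in siCtl_Veh and 17, 19 and 20 in siCtl_DEX, and 18, 18 and 19 against 21, 19 and 20 in siGATA6. At 4 h it held 15, 14, 15 and 12 with DMSO and 19, 18, 17 and 19 in DEX_DMSO, without overlap. That rise of 4.25 regions (log2 difference 0.36, SE 0.093) had an exact permutation p of 0.0286 but an adjusted p of 0.128, and with only peaks of -log10 q of at least 5 an adjusted p of 0.0232. The 2 h differences were 0.15 and 0.12 (adjusted p = 0.376 and 0.419). With DEX 2 TSC22D4 regions were gained, chr7:100504041-100504411 at 2 h in siCtl and at 4 h, and chr7:100524476-100524763 at 4 h. These are 1 of 22 held regions at 2 h (4.55%, against 2.52% of all regions) and 2 of 22 at 4 h (9.09%, against 1.56%). The 2 h count was 0 with -log10 q of at least 5, and the 4 h count 0 with equally many best peaks. At the first, 25.0 kb before the start, levels were 20.3, 14.2 and 16.7 in siCtl_DEX and 40.4, 43.7, 27.7 and 59.1 in DEX_DMSO. It lies in the same flank as chr7:100503090-100503719, which every DEX library without BRM014 held at 38.6 to 64.0 and control libraries held in part, at 12.1 to 20.7.

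With DEX present, BRM014 lost 3 of 24 held regions at TSC22D4 (12.5%, near the 11.6% of all regions), namely chr7:100503090-100503719, chr7:100504041-100504411 and chr7:100516153-100516530. BRM014 gave TSC22D4 counts of 13, 12, 13 and 10, and 14, 14, 14 and 13 with DEX. The log2 differences were -0.21 (adjusted p = 0.0626) and -0.38 (SE 0.093, adjusted p = 0.00246), where 60.4% and 61.6% of all genes were called lower. Its count in siBRG1_siBRM was 12, 12, 9 and 12 against 15, 14, 14 and 17 (log2 difference -0.39, SE 0.11, adjusted p = 0.0259). There 48.1% of all genes were called lower. With equally many best peaks the differences for BRM014 in DEX and for siBRG1_siBRM turned to 0.21 (adjusted p = 0.161) and 0.43 (adjusted p = 0.0249). The knockdown call was lost without siCtl_only replicate 1 (adjusted p = 0.0589) or 4 (0.0664), with -log10 q of at least 5 (-0.16, adjusted p = 0.287) and with a window of 10 kb (-0.26, adjusted p = 0.258). The call for BRM014 in DEX was lost with a window of 10 kb (-0.16, adjusted p = 0.223), and the BRM014 value without DEX passed without DMSO replicate 4 (adjusted p = 0.0216) or BRM014 replicate 3 (0.0426). The window holds other genes (MEPCE, ZCWPW1, PPP1R35, SPACDR, NYAP1 and the readthrough TSC22D4-C7ORF61), and 9 of its 28 regions were held by all 36 libraries, against 9.23% of all regions. The region over the TSC22D4 start, chr7:100479109-100479618, differed by 0.23, 0.06 and 0.19 with DEX (adjusted p = 0.401, 0.915 and 0.415).

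Set against its paralogues in the same libraries, TSC22D3 went from a mean of 37.3%, 33.3% and 33.3% of its regions held without DEX to 73.3%, 73.3% and 67.7% with it. These shares are of the regions found in the same experiment, and 14 of the 27 TSC22D3 regions were held only with DEX, so a low share without DEX follows in part from the denominator. In the experiment without DEX the share was 84.4% in siCtl_only. The measure is the share of the locus's regions held, minus the mean share of the 3 paralogues. It went from -18.4 ± 2.01 to 13.6 ± 7.07 percentage points in siCtl and from -23.2 ± 2.22 to 12.6 ± 12.5 in siGATA6 (n = 3), differences of 32.0 and 35.8 (two-sided exact permutation p = 0.1, the smallest possible; 0.15 adjusted over 9 comparisons). At 4 h it went from -13.3 ± 3.89 to 9.71 ± 6.20 (n = 4), a difference of 23 points (exact p = 0.0286, adjusted 0.129). With DEX, BRM014 lowered it by a difference of -27.6 points (exact p = 0.0286, adjusted 0.129). Under BRM014, DEX gave -3.88 (exact p = 0.314), and BRM014 alone -0.710 (exact p = 0.743). Knockdown of BRG1 and BRM gave -21.0 points (exact p = 0.0571, adjusted 0.15), and GATA6 knockdown -4.75 (exact p = 0.1) and, in DEX, -0.970 (exact p = 0.9). No adjusted value passed 0.05, and with 9 comparisons of these sizes none could. Levels with DEX rose at 1 of 10, 0 of 11 and 0 of 7 tested TSC22D2 regions and at none of those tested at TSC22D1 or TSC22D4. After centring, these counts were 2, 0 and 0 at TSC22D2 and 0, 0 and 2 at TSC22D4.

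The genes whose number of held regions ran most like that of TSC22D3 were FKBP5 (r = 0.941), NFKBIA (0.933), ARMC12 (0.933, a neighbour of FKBP5), ZBTB16 (0.930) and ST3GAL4 (0.921). This is Pearson's r over 36 libraries, centred on the mean of each experiment, among 18481 genes that share no region with TSC22D3, given as a description. All points share their libraries and so their depth, and the median gene had r = 0.455. TSC22D4 had r = 0.715, TSC22D2 0.587 and TSC22D1 0.515. FKBP5 encodes a co-chaperone of the receptor and NFKBIA the NF-kB inhibitor IkB-alpha. FKBP5 went from a mean of 10.3 to 22.3 regions at 2 h in siCtl, from 8 to 23 at 4 h and from 4.5 to 9.25 under BRM014.

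Of 22 known receptor target genes listed for comparison, 6 rose in number of regions at 2 h in siCtl (BIRC3, ERRFI1, FKBP5, NFKBIA, PDK4, ZBTB16), 4 in siGATA6 (FKBP5, KLF9, NFKBIA, ZBTB16) and 3 at 4 h (DUSP1, FKBP5, ZBTB16), where 0.442%, 0.697% and 0.282% of all genes did. None fell with DEX, and none rose under BRM014 (0.032% of all genes). Their median log2 differences were 0.32, 0.33, 0.32 and 0.23, beside 0.01, 0.08, 0.06 and 0.05 for all genes. Of 21 genes of proteins known to act with the family, such as NRBP1, the WNK kinases, NR3C1 (the receptor itself) and RELA, none was called with DEX, and their medians were 0, 0.14, 0.06 and 0.01. With BRM014, 14 of the 21 fell without DEX and 12 with it, and 13 fell in siBRG1_siBRM, where 60.4%, 61.6% and 48.1% of all genes fell. For the receptor targets these counts were 16, 20 and 14 of 22. Medians were -0.56, -0.54 and -0.56 for the partners and -0.68, -0.77 and -0.57 for the targets, beside -0.46, -0.48 and -0.45 for all genes. NR3C1 itself gave -0.41 at 2 h in siCtl (adjusted p = 0.170), -0.54 in siGATA6 (0.0700) and -0.02 at 4 h (0.997). Both lists were chosen with earlier results of these data known, so their counts are a description. FKBP5, NFKBIA and ZBTB16 are also among the genes of like pattern named above.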

How the data were processed

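The 36 ATAC-seq peak lists were called by the authors per library, with bcl2fastq, SAMtools, MACS2 and HOMER named in the submitters' processing notes on hg38. For the aligner, versions and settings: not given in the sources used here. The deposited values used were the fold (a ratio of summit pileup to local background), the -log10 p and -log10 q of each peak, and the summit position. The lowest deposited -log10 q was 1.30. The labels call the replicates biological, and p-values measure the spread between these libraries. No pair of libraries had identical peaks.

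Peaks of chromosomes 1 to 22 and X were merged by an overlap of at least 1 bp. Per gene, regions with a centre within 50 kb were counted and tested with limma 3.58.1 (trend) on log2(number + 1), over protein-coding genes with at least 3 regions, all groups of an experiment sharing the spread, with Benjamini-Hochberg adjustment over all genes and a threshold of 0.05. Single values had a two-sided exact permutation test, and interactions 100000 permutations of residuals. Peak lists hold no read counts, so no count model was used. The whole-number summit pileup and local background were solved from the deposited fold and p-value, which succeeded for 100% of peaks. The base background of a library was the lowest held by at least 1% of its peaks. Summit levels were tested with limma over regions held by every library of both groups, a measure added after seeing the data. Both fits were tested on simulated data with known changes. Read depth is not in the files, so no counting interval is given.

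The 4 genes, the lists of receptor targets, partners and cell markers, and the rules were chosen with earlier results of these data known. Named regions were those gained or lost, at most 8 per gene in full, plus those over gene ends. Genes of like pattern were the 5 of highest r among genes with at least 5 regions. Regions described for their summit level (chrX:107676556-107677366, chrX:107673001-107673314, chrX:107718189-107718424, chr3:150469400-150470071, chr3:150422153-150422480, chr3:150462111-150462481, chr7:100503090-100503719) were chosen after their values were seen. Alternatives were a stricter q, equal numbers of best peaks, merging within an experiment, windows of 10 and 100 kb, a square root scale, no minimum of regions, a replicate block and leaving out each library. Python used numpy 2.4.6, pandas 2.3.3, scipy 1.17.1 and matplotlib 3.10.9. MDA-MB-231 was not analysed here. One marker gene is not reported here.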

Additional observations from a re-analysis of the deposited data

Results flagged for a closer look

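Among 41 groups of 4 libraries examined for number of regions or summit level, 4 had a library apart from the other 3 by Dixon's criterion. For continuous values chance flags about 1 of 20 groups. Where 3 counts tie, any other count is flagged, so this rate does not hold for counts. Each of the flags on number of regions below arose in this way. At TSC22D3, siBRG1_siBRM replicate 3 held 2 regions where the other 3 held 4, and at TSC22D4 the same library held 9 where the others held 12. This library has the fewest peaks of all, 37184, and its part in these values was not tested. At TSC22D4, DEX_BRM014 replicate 4 held 13 where the others held 14. At the TSC22D3 short-form start, DMSO replicate 4 had a summit level of 36.1 against 29.0 to 29.8.

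Of 8 interactions on the number of regions, 3 had a permutation p under 0.05. The DEX response was smaller under BRM014 by -8 regions at TSC22D3 (permutation p = 0.00023) and by -2.5 at TSC22D4 (permutation p = 0.0422), and larger in siGATA6 than in siCtl by 2.67 at TSC22D2 (permutation p = 0.0458). In limma's fit over all genes the adjusted p-values were 0.489, 1 and 0.928.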

How the results depend on the processing

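At TSC22D3 the direction of every called difference in number of regions held under each alternative run, except with an equal number of best peaks. There BRM014 without DEX gave 0.29 and siBRG1_siBRM 0.18, TSC22D2 with BRM014 in DEX 0.14, TSC22D4 with BRM014 in DEX 0.21 and with siBRG1_siBRM 0.43, and the DEX by BRM014 interaction at TSC22D3 became -1.69 and was called. The cause was not tested. A window of 10 kb, which holds fewer regions, gave 0.36, 0.48 and 0.53 for the 3 DEX comparisons at TSC22D3, none called, and 3, 3 and 2 regions gained, and 3 lost with BRM014 in DEX. A window of 100 kb gave 0.74 for DEX at 4 h, not called (adjusted p = 0.0735), and 2 regions lost in siBRG1_siBRM. With -log10 q of at least 5, 6 regions were gained in siGATA6, and 0 lost with DEX in siCtl or in siBRG1_siBRM. Equal numbers of best peaks gave 3 gained at 4 h, 3 lost with BRM014 in DEX, and 0 lost with DEX in siCtl or in siBRG1_siBRM.

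Leaving out 1 library moved DEX at 4 h at TSC22D3 between 0.89 and 1.00, and the lost regions with DEX in siCtl and in siBRG1_siBRM between 1 and 2. Asking for a summit inside the region changes nothing, since every summit lies in its merged region. A summit within 100 bp of the median summit was used in its place, chosen after seeing the data, and gave 2 regions lost with DEX in siCtl. Centred on library medians, the level at chrX:107777265-107777509 with BRM014 was 0.43. Among 1149 tested alternative values, 59 turned sign without a call on either side.

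Correlations between libraries of the same replicate number were small, and 5 of 32 were over 0.1. In 34 of 64 pairs of a library and a comparison the library correlated best with its own number. In the GATA6 experiment the medians were 0.0238 to 0.108 for the same number and -0.0717 to -0.0294 for different numbers. The median for the same number was higher in every comparison except DEX at 4 h in DMSO (0.0016 against 0.0071). The main tests did not use the replicate numbers. With the replicate block, 12 of 36 tests of the 4 loci were called against 10 without it, the additions being TSC22D1 with BRM014 in DEX (adjusted p = 0.0408) and TSC22D2 in siBRG1_siBRM (0.0472). The DEX differences at TSC22D3 with the block were 0.90, 1.05 and 0.94, all called. The number of peaks limits what a missing peak shows, since libraries with fewer peaks call fewer weak regions. Base background, unlike the number of peaks, overlapped between the groups. It changed by -1.96% with BRM014, by 2.56% with BRM014 in DEX and by -4.01% in siBRG1_siBRM. The two-sided exact permutation test gave p = 0.686, 0.743 and 0.686. Read depth is not given, and its part in the missing peaks was not tested.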
